A study of Homo sapiens with 6 samples.

Results

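The transcripts examined here are those of 10 genes that build, coat and break down lipid droplets, taken from the deposited count table by gene symbol: the coat proteins PLIN2 and PLIN3, the fusion protein CIDEC, the lipase PNPLA2 with its activator ABHD5 and its inhibitors G0S2 and HILPDA, the triglyceride-making enzymes DGAT1 and DGAT2, and the fatty acid carrier FABP5. They are 10 of 58735 rows of the table, and 9 of them passed the filter on low counts that left 14573 genes for testing. The genes were read in 786-O cells, an established human line from a clear cell renal carcinoma, as 3 libraries named sh-Control, from cells given a control hairpin, and 3 named sh-CBX7, from cells given a short hairpin RNA that targets CBX7, a chromobox subunit of Polycomb complexes; these are the 2 groups of the series. The labels give no other treatment, allele or time, nor how many cultures, clones or hairpin sequences stand behind the libraries, so a p-value here speaks of the spread among these libraries, which may be technical. The series title places the study in clear cell renal carcinoma, TNF signalling and the response to tyrosine kinase inhibitors.

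A lipid droplet is a store of triglyceride and sterol ester wrapped in a single layer of phospholipid. DGAT enzymes add the last fatty acid to make triglyceride, perilipins cover the droplet, and PNPLA2 (adipose triglyceride lipase) takes the first fatty acid off again; ABHD5 switches this lipase on, while G0S2 and HILPDA bind it and hold it back. Clear cell renal carcinoma owes its name to cytoplasm filled with such droplets and glycogen; 786-O cells carry an inactivated VHL gene and keep the hypoxia-inducible factor EPAS1 active, and PLIN2 and HILPDA are known targets of hypoxia-inducible factors.

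Library totals ran from 16384151 to 18868874 counts. CBX7 fell by 0.71 on the log2 scale with an SE of 0.13 (adjusted p = 5.41e-05, edgeR), from 12.2 ± 0.98 to 7.44 ± 0.67 CPM (counts scaled to library size; SD, n = 3 libraries each), and was still detected in each library. All 10 markers of kidney tubule and clear cell carcinoma passed the filter, with a summed level of 3215 to 3359 CPM in sh-Control and 3411 to 3633 CPM in sh-CBX7; 3 of them rose and 4 fell. The 8 adipocyte markers summed to 1.32 to 1.86 CPM over the 6 libraries, LEP and CIDEA being at 0. The 8 immune markers summed to 8.66 to 8.96 CPM in sh-Control and 16.7 to 19.6 CPM in sh-CBX7, with CSF1R the 1 of them that rose and PTPRC, CD3E and MS4A1 at 0 in each library. The 5 endothelial markers summed to 2.53 to 3.50 CPM against 3.99 to 5.25 CPM, with CDH5 at 0 and PECAM1 the 1 that rose (log2 fold change 0.70). The 5 fibroblast markers summed to 11.1 to 12.6 CPM against 11.1 to 12.9 CPM, with COL1A1 (-1.03) and PDGFRA (-1.88) lower and LUM (0.73) higher on the log2 scale. Mitochondrial genes took 2.32% to 2.81% of counts in sh-Control and 2.60% to 2.69% in sh-CBX7. In bulk RNA of this kind, a change in the share of cells that express a gene and a change in RNA per cell cannot be told apart.

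The DNA just upstream of a RefSeq transcript start is shown for 3 of the genes. They are G0S2 and PLIN2, the members with the largest rise among those with a promoter entry, and PNPLA2, the member that fell. Each stretch is the 250 bases before the start of the gene's RefSeq transcript (build GRCh38.p14), 5' to 3' on the gene's own strand. The PLIN2 stretch lies inside the annotated span of the gene (19108375 to 19149290), and the PNPLA2 stretch ends past the annotated start of its gene (818902). Capitals mark ACGTG or GCGTG on either strand (CACGT or CACGC as printed), the core letters of a hypoxia response element.
G0S2 (chr1:209675162-209675411, plus strand): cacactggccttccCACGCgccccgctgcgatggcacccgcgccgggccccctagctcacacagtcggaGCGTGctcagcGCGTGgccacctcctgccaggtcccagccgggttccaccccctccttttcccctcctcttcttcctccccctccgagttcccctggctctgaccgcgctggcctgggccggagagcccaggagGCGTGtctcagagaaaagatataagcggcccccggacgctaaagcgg
PLIN2 (chr9:19127493-19127742, minus strand): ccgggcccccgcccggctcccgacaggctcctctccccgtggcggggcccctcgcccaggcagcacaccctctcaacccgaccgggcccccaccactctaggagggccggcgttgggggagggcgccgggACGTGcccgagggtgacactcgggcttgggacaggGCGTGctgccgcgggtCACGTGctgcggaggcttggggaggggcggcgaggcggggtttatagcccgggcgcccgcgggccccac
PNPLA2 (chr11:818664-818913, plus strand): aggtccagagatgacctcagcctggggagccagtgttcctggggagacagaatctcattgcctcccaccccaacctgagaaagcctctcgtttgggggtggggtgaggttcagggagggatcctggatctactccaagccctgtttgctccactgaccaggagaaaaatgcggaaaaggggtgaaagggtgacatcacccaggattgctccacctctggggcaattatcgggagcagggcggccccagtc
The G0S2 stretch held 4 matches to GCGTG. The PLIN2 stretch held 1 match to GCGTG and 3 to ACGTG, of which 2 are the same palindrome CACGTG, an E-box, read on both strands. The PNPLA2 stretch held none of these letters, and 1 match to AGGTCA, the core of nuclear receptor elements. Over 35116 RefSeq promoters of the same length, 18.5% held ACGTG, 32.2% held GCGTG, 43.2% held either, 12.1% held AGGTCA and 6.34% held CACGTG. GC content was 69.2% in the G0S2 stretch, 78% in that of PLIN2 and 58.4% in that of PNPLA2, against a median of 58% over all promoters. Of 6 members whose entries were examined, matched by symbol, 4 had an entry with either core. This count is per gene over 9 entries, while the shares over all promoters are per entry. These matches are a description of letters and do not show binding.

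In cells with the CBX7 hairpin, 6 of the 9 tested lipid droplet genes rose, 1 fell and 2 were not called in edgeR's quasi-likelihood test (Benjamini-Hochberg adjusted p below 0.05 over all tested genes). The genes that rose were G0S2, PLIN2, FABP5, ABHD5, HILPDA and PLIN3, and the one that fell was PNPLA2. The difference between the groups was broad: 53.3% of all tested genes were called, 26.1% as higher and 27.2% as lower. An effect of the hairpin and a difference of culture or clone cannot be told apart here. The members were called in 77.8%, as higher in 66.7% and as lower in 11.1%. Their median log2 fold change was 0.35, beside -0.006 over all tested genes. The groups of libraries did not overlap for 7 of the 9, or 77.8%, beside 59% of all tested genes. The members were chosen with results of these data known, so these shares are a description and not a test of the set.

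**Figure D1:**
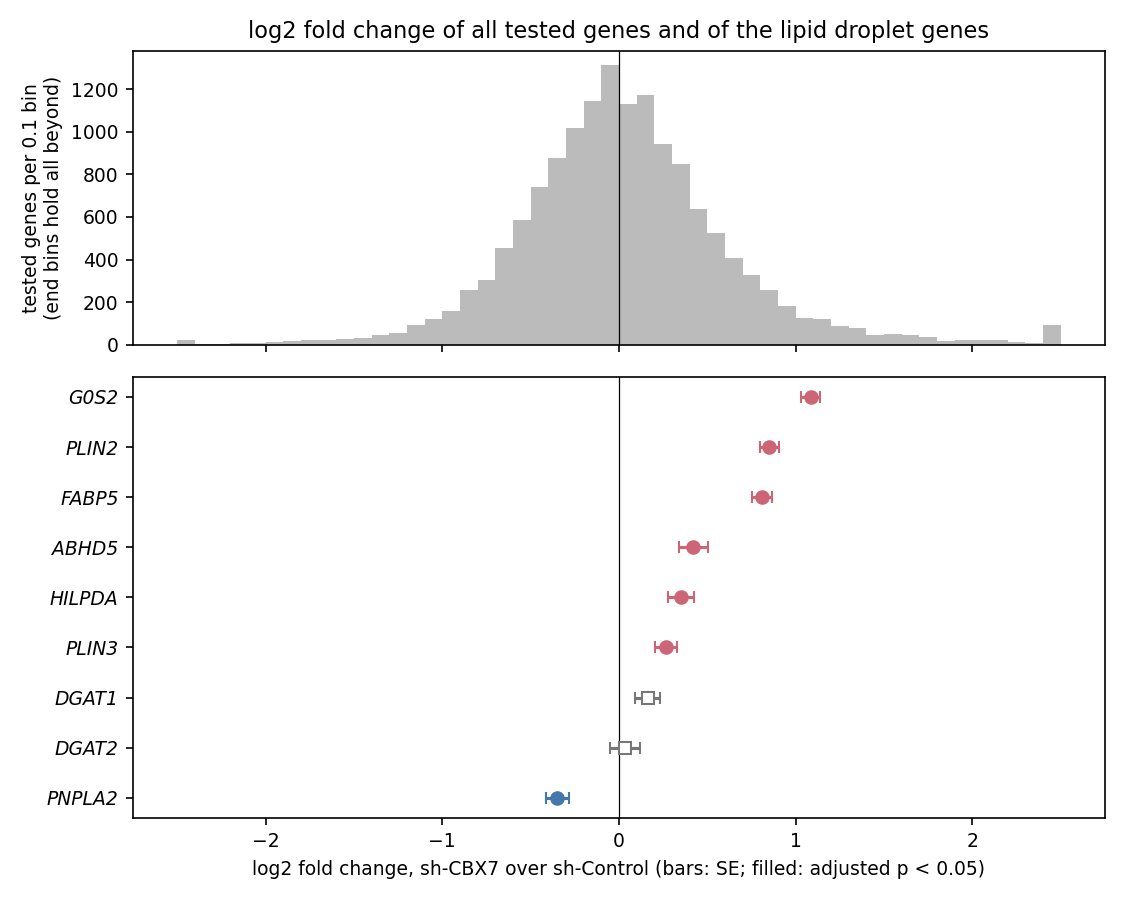
Upper panel, number of tested genes (y axis) per 0.1 bin of log2 fold change, sh-CBX7 over sh-Control (x axis), with genes beyond 2.5 in either direction held in the end bins. Lower panel, log2 fold change of the 9 tested lipid droplet genes on the same x axis, with SE as bars and filled points for adjusted p below 0.05: G0S2 lies at 1.09, PLIN2 at 0.85 and FABP5 at 0.81, PNPLA2 at -0.35, and DGAT1 and DGAT2 are open points.

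Both perilipins of the droplet coat rose. PLIN2, the perilipin that covers droplets in most cells and marks lipid-filled tumour cells, lies on chromosome 9 (GRCh38, 19108375 to 19149290, minus strand; ENSG00000147872). It was read at 205, 206 and 205 CPM in the 3 sh-Control libraries and at 367, 383 and 362 CPM in the 3 sh-CBX7 libraries. The groups were thus far apart. The coefficient of variation of the control libraries was 0.39%, less than counting noise alone gives at such counts, so it is not a measure of precision. The mean went from 205.4 ± 0.80 to 370.4 ± 10.8 CPM (SD, n = 3 libraries each), 1.80-fold, with a log2 fold change of 0.85, an SE of 0.05 (adjusted p = 7.52e-12, edgeR). Of all tested genes, 92.6% had a lower log2 fold change.

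PLIN3, a perilipin that moves between cytosol and young droplets (chromosome 19, 4838341 to 4867768, minus strand; ENSG00000105355), had a smaller log2 fold change. Its levels were 365, 303 and 328 CPM in sh-Control and 412, 394 and 393 CPM in sh-CBX7. Each sh-CBX7 library was above each control library, and control replicate 1 came closest to them. The log2 fold change was 0.27 with an SE of 0.06 (adjusted p = 0.000871, edgeR), and 70.7% of tested genes had a lower one. CIDEC, which joins droplets into larger ones (chromosome 3, 9866711 to 9880254, minus strand; ENSG00000187288), was hardly read. Its counts were 0, 2 and 0 in sh-Control and 0, 2 and 1 in sh-CBX7. All 6 libraries were under the floor of 3 counts (0.159 to 0.184 CPM per library), so a difference was not detectable at this depth. The other coat and fusion proteins were likewise scarce: none of PLIN1, PLIN4, PLIN5, CIDEA and CIDEB passed the filter, PLIN5, CIDEA and CIDEB having 0 counts in each library. PLIN2 and PLIN3 were therefore the perilipins read above the filter in these cells.

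**Figure D2:**
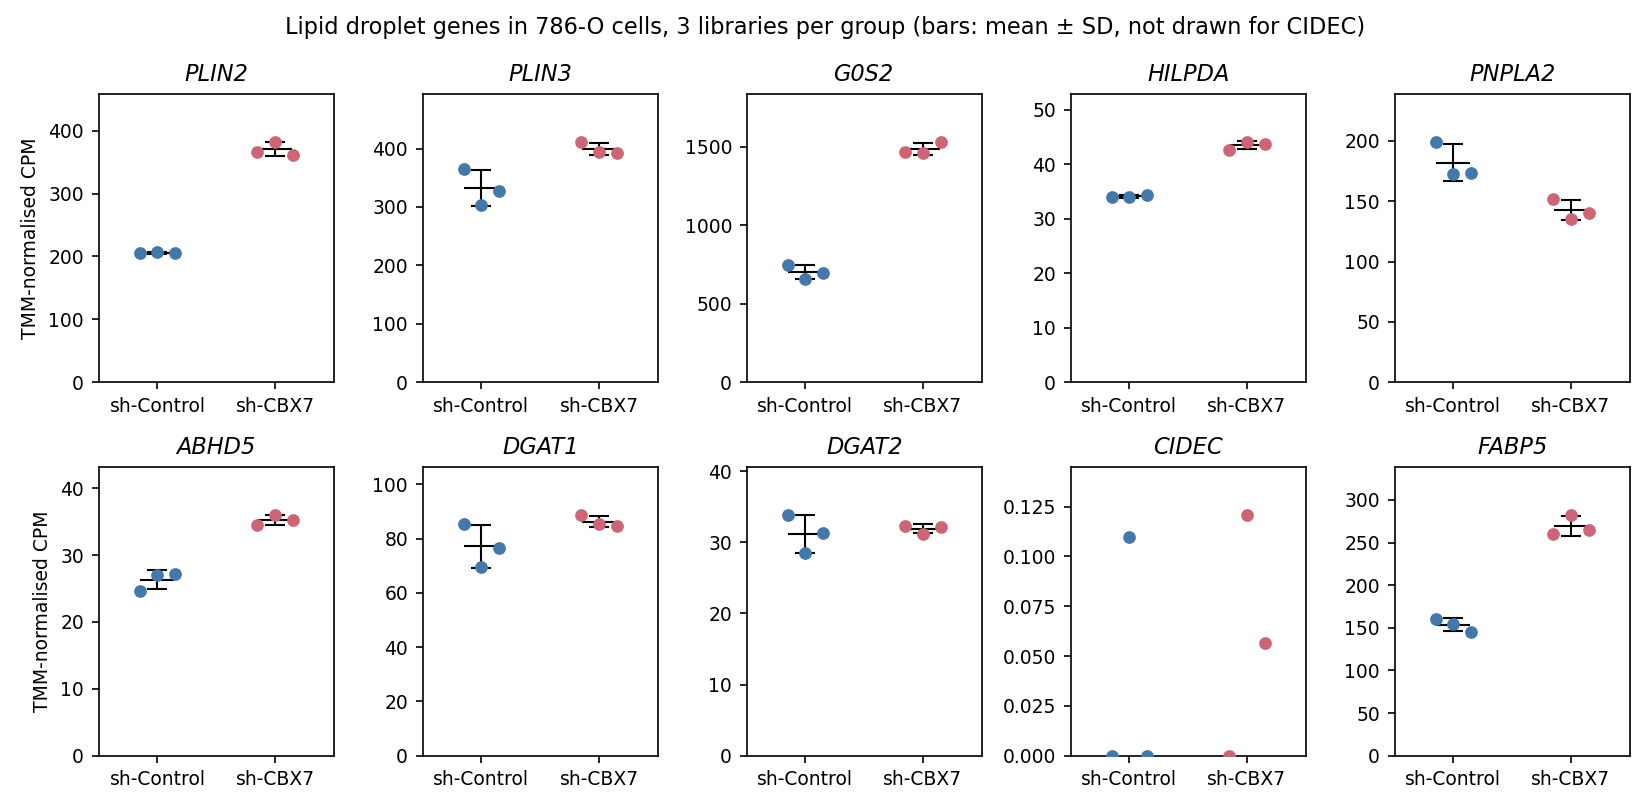
TMM-normalised CPM (y axis, from 0, a separate scale for each gene) of the 10 lipid droplet genes in the 3 sh-Control and 3 sh-CBX7 libraries; points are libraries and bars the mean ± SD, not drawn for CIDEC. The groups are apart for PLIN2, PLIN3, G0S2, HILPDA, PNPLA2, ABHD5 and FABP5 and overlap for DGAT1, DGAT2 and CIDEC.

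The lipase and its partners moved in different directions. PNPLA2 itself (chromosome 11, 818902 to 825573, plus strand; ENSG00000177666) was read at 199, 172 and 174 CPM in sh-Control and 152, 136 and 141 CPM in sh-CBX7. Each sh-CBX7 library was below each control library. The gene fell by 0.35 on the log2 scale with an SE of 0.07 (adjusted p = 9.99e-05, edgeR), from 181.9 ± 15.3 to 142.6 ± 8.28 CPM (SD, n = 3 libraries each), or 1.28-fold.

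G0S2, a small protein that binds the lipase and blocks its activity, had the largest change of the 10 genes. It lies on chromosome 1 (209675420 to 209676388, plus strand; ENSG00000123689), with the promoter stretch printed above. Its levels were 746, 659 and 699 CPM in sh-Control and 1469, 1464 and 1534 CPM in sh-CBX7. Each sh-CBX7 library was far above each control library. The mean went from 701.6 ± 43.3 to 1489 ± 39.2 CPM (SD, n = 3 libraries each), 2.12-fold, with a log2 fold change of 1.09, an SE of 0.05 (adjusted p = 1.33e-13, edgeR). Of all tested genes, 95.3% had a lower log2 fold change. By mean CPM over the 6 libraries, 94 of the 14573 tested genes were read more strongly than G0S2.

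HILPDA, the hypoxia-inducible inhibitor of the same lipase (chromosome 7, 128455849 to 128458418, plus strand; ENSG00000135245), also rose. Its levels were 34.0, 34.0 and 34.4 CPM in sh-Control and 42.6, 44.1 and 43.8 CPM in sh-CBX7. The SD was 0.26 CPM in sh-Control and 0.80 CPM in sh-CBX7, and the groups did not overlap. Both SDs are below what counting noise alone gives at such counts. The log2 fold change was 0.35 with an SE of 0.07 (adjusted p = 0.000306, edgeR), a 1.28-fold difference of means.

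ABHD5, the activator of the lipase (chromosome 3, 43690108 to 43734371, plus strand; ENSG00000011198), was higher too, going from 24.7, 27.1 and 27.2 CPM in sh-Control to 34.5, 36.0 and 35.3 CPM in sh-CBX7. The log2 fold change was 0.42 with an SE of 0.08 (adjusted p = 0.000154, edgeR). ABHD5 shares 1487 bases with ANO10 on the opposite strand, and the strand setting of the counting is not given in the sources used here. ANO10 had 1940, 2043 and 1823 counts in sh-Control and 3158, 2470 and 2773 in sh-CBX7. It rose by a log2 fold change of 0.47 with an SE of 0.06 (adjusted p = 7.01e-07, edgeR). The value of ABHD5 is uncertain to the extent that reads of the shared stretch were counted for it or left out of it, which was not tested.

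Ratios of transcripts within a library do not depend on how libraries are scaled, and 6 of them were compared. Each is the ratio of counts per base of gene, with 0.5 added to each count. G0S2 over PNPLA2 was 16.6, 17.0 and 17.9 in sh-Control and 43.0, 47.9 and 48.4 in sh-CBX7, a 2.71-fold difference. HILPDA over PNPLA2 was 0.316, 0.366 and 0.368 against 0.522, 0.605 and 0.578, a 1.62-fold difference. Both inhibitors thus stood higher against the lipase in each sh-CBX7 library than in any control library.

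The activator shifted the same way as the inhibitors: ABHD5 over PNPLA2 was 0.063, 0.080 and 0.080 in sh-Control and 0.116, 0.135 and 0.128 in sh-CBX7, a 1.71-fold difference. PLIN2 over PNPLA2, coat against lipase, was 0.778, 0.904 and 0.890 against 1.83, 2.13 and 1.94, a 2.30-fold difference. Within the coat, PLIN2 over PLIN3 was 0.311, 0.376 and 0.345 against 0.493, 0.537 and 0.510, a 1.495-fold difference. DGAT2 over DGAT1 was 0.207, 0.214 and 0.214 against 0.191, 0.191 and 0.199, a 0.913-fold difference. In none of the 6 pairs did the groups overlap, and no share over other gene pairs was taken to set beside this. The ratios of G0S2, HILPDA, ABHD5 and PLIN2 to PNPLA2 share a denominator and are not separate observations. Each of these numerators was higher and PNPLA2 lower in all sh-CBX7 libraries, so those groups had to be apart. The exact 2-sided permutation test gave p = 0.1 for each pair (adjusted p = 0.1 over the 6). This is the smallest that 3 libraries against 3 allow, so none can pass 0.05 in this design.

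**Figure D3:**
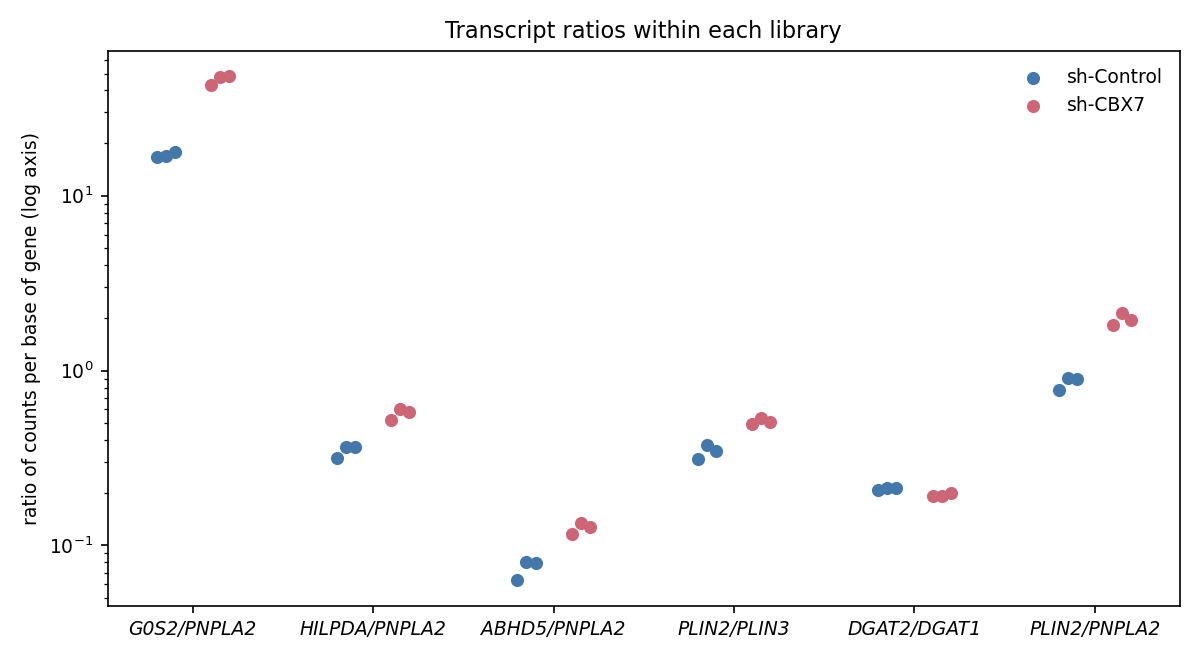
Ratio of counts per base of gene (y axis, log scale) for 6 pairs of lipid droplet genes (x axis); each point is 1 library, blue for sh-Control and red for sh-CBX7. G0S2 over PNPLA2 sits between 16.6 and 17.9 in sh-Control and between 43.0 and 48.4 in sh-CBX7, and DGAT2 over DGAT1 is the 1 pair whose ratio was lower in sh-CBX7.

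Neither enzyme that completes triglyceride synthesis was called in the unpaired fit with TMM scaling and all 6 libraries. DGAT1, the endoplasmic reticulum enzyme (chromosome 8, 144314584 to 144326910, minus strand; ENSG00000185000), was read at 85.4, 69.4 and 76.6 CPM in sh-Control and 88.7, 85.6 and 84.7 CPM in sh-CBX7. Control replicate 1 lay above the lowest sh-CBX7 library, so the groups overlapped. The log2 fold change of 0.16 (SE 0.07) missed the threshold (edgeR adjusted p = 0.057). It moved with single control libraries. It was 0.24 without sh-Control replicate 1 (edgeR adjusted p = 0.000952) and 0.089 without sh-Control replicate 2 (edgeR adjusted p = 0.31). It passed at 0.17 with scaling by library size alone (edgeR adjusted p = 0.0339) and at 0.21 with upper quartile scaling (edgeR adjusted p = 0.0131). With replicate number as a block it also passed, at 0.17 (edgeR adjusted p = 0.0224). DGAT1 shares 139 bases with HSF1 on the opposite strand, whose log2 fold change was 0.17 with an SE of 0.06 (adjusted p = 0.0177, edgeR).

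DGAT2, the second enzyme of the same step, unrelated in sequence family and able to act at the droplet itself (chromosome 11, 75759512 to 75801535, plus strand; ENSG00000062282), was read at 33.8, 28.5 and 31.3 CPM in sh-Control and 32.4, 31.2 and 32.2 CPM in sh-CBX7. All sh-CBX7 libraries lay inside the range of the controls. The log2 fold change was 0.034 with an SE of 0.08 (adjusted p = 0.757, edgeR).

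FABP5, which carries fatty acids through the cytosol (chromosome 8, 81280363 to 81284777, plus strand; ENSG00000164687), rose with PLIN2. Its levels were 161, 155 and 145 CPM in sh-Control and 260.1, 282 and 265 CPM in sh-CBX7. The groups were well apart. The mean went from 153.6 ± 7.75 to 269.2 ± 11.5 CPM (SD, n = 3 libraries each), 1.75-fold, with a log2 fold change of 0.81 with an SE of 0.06 (adjusted p = 8.45e-11, edgeR).

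FABP5 has many processed copies in the genome, and 13 rows of the table carry such names; 9 of these had no count in any library. FABP5P7 was the copy with most reads, at 316, 360 and 294 counts in sh-Control and 612, 658 and 630 in sh-CBX7, against 2370 to 4902 counts for FABP5. Every 50-base window of the annotated FABP5P7 transcript (100% of 356) occurred unchanged in a FABP5 transcript. Reads of the parent and of this copy can therefore not be told apart by sequence within those windows. The copy's log2 fold change was 0.92 with an SE of 0.09 (adjusted p = 2.59e-08, edgeR), and FABP5 with all 13 copies added had 0.82 with an SE of 0.06 (adjusted p = 6.41e-11, edgeR).

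Levels of different genes were compared per length, as CPM divided by the gene length of the table in kilobases (RPKM). In sh-Control, G0S2 was at 810.2 ± 50.1 RPKM (SD, n = 3), PLIN3 at 118.1 ± 11.1, FABP5 at 73.9 ± 3.73, PNPLA2 at 47.3 ± 3.97, PLIN2 at 40.4 ± 0.16, DGAT1 at 18.7 ± 1.93, HILPDA at 16.5 ± 0.13, DGAT2 at 3.95 ± 0.34 and ABHD5 at 3.49 ± 0.19. Of neighbours in this order, DGAT2 and ABHD5 overlapped between libraries and the others did not; no test was made between genes. In sh-CBX7, PLIN2 stood at 72.8 ± 2.12 RPKM and PNPLA2 at 37.1 ± 2.16, so the lipase was above the coat protein in control cells and below it in sh-CBX7 cells on this scale. The order depends on the length used: with the annotated transcript of longest coding sequence, PLIN2 had 104.2 RPKM and PNPLA2 74.9 RPKM already in sh-Control, FABP5 180.5 RPKM and PLIN3 142.4 RPKM, and DGAT2 12.7 RPKM.

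The other genes of the pathway were read from 8 lists. Over all tested genes, 53.3% were called, 26.1% as higher and 27.2% as lower. Earlier steps of triglyceride synthesis, from glycerol phosphate to diglyceride, moved in both directions: of 11 tested genes 6 fell and 2 rose (72.7% called; median log2 fold change -0.19). GPAT3, which adds the first fatty acid, went from 65.4 ± 1.49 to 40.9 ± 4.47 CPM (SD, n = 3 libraries each), with a log2 fold change of -0.68, an SE of 0.08 and an edgeR adjusted p = 1.27e-07. The acyltransferase AGPAT5 had a log2 fold change of -0.44 and the phosphatidate phosphatase LPIN1 -0.41, while the acyltransferase AGPAT4 rose by 0.43.

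The other hydrolases of neutral lipid split 2 and 2 of 5 tested (80% called, beside 53.3% of all tested genes, median 0.15). LIPA, the lysosomal acid lipase, rose from 98.1 ± 2.42 to 182.4 ± 6.33 CPM (SD, n = 3 libraries each), with a log2 fold change of 0.89, an SE of 0.06 and an edgeR adjusted p = 1.58e-11, and MGLL, which cleaves monoglyceride, had a log2 fold change of 0.54. LIPE, the hormone-sensitive lipase that follows PNPLA2 in the cytosol, had 87, 102 and 87 counts in sh-Control and 47, 18 and 35 in sh-CBX7. The groups did not overlap, and the log2 fold change was -1.52 with an SE of 0.23 (adjusted p = 6.67e-06, edgeR). PNPLA3, a relative of PNPLA2, had -0.84 with an SE of 0.26 (adjusted p = 0.00774, edgeR) and lost the call without sh-Control replicate 1 (-0.56, edgeR adjusted p = 0.087).

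Of 3 tested genes of sterol ester storage 2 fell and 0 rose by edgeR (66.7% called, beside 53.3% of all tested genes; median -0.43), and 2 had an unadjusted p below 0.05. NCEH1, a sterol ester hydrolase, had a log2 fold change of -0.43 and SOAT2, a sterol ester synthase with 21, 18 and 20 counts in sh-Control and 10, 4 and 5 in sh-CBX7, -1.68 (SE 0.44). SOAT1, the main such enzyme in most tissues, had -0.13 with an SE of 0.08 (adjusted p = 0.158, edgeR), and moved with single libraries: it passed at -0.21 without sh-Control replicate 1 (edgeR adjusted p = 0.00737), and was -0.086 without sh-Control replicate 2 (edgeR adjusted p = 0.405) and -0.078 without sh-CBX7 replicate 3 (edgeR adjusted p = 0.49).

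Proteins that form or sit on the droplet split 5 and 5 of 11 tested (90.9% called, beside 53.3% of all tested genes, median -0.11). LPCAT1, which makes the phosphatidylcholine of the surface, rose from 203.7 ± 5.18 to 345.1 ± 12.3 CPM (SD, n = 3 libraries each), with a log2 fold change of 0.76, and TMEM159, the partner of seipin in droplet assembly, had 0.52. RAB18, a small GTPase of the droplet surface, had -0.62 and SPART -0.50. The seipin gene BSCL2 did not pass the filter with 3 to 19 counts per library; its row overlaps an annotated read-through gene, so its reads may have been left out of this row, which was not tested.

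Genes of fatty acid uptake and activation were called in 6 of 12 tested, 4 lower and 2 higher (median -0.077). That is 50% called, beside 53.3% of all tested genes. The fatty acid transport proteins SLC27A1 and SLC27A4 had log2 fold changes of -0.94 and -0.84, the acyl-CoA synthetase ACSL1 -0.46 and the lipoprotein receptor VLDLR 0.51. The fatty acid binding proteins FABP1, FABP2, FABP3, FABP4, FABP7 and PMP2 and the uptake receptor CD36 did not pass the filter. FABP6, the bile acid binding member of the family, passed it at 12.6 ± 0.69 CPM in sh-Control and 11.8 ± 2.84 CPM in sh-CBX7 (SD, n = 3 libraries each) and was not called (log2 fold change -0.084, edgeR adjusted p = 0.635). Mitochondrial and peroxisomal oxidation genes were called in 10 of 21, 6 higher and 4 lower (median 0.034). Their share of 47.6% was also below the 53.3% of all tested genes. The carnitine carrier SLC25A20 had 0.72 and the isomerase ECI2 0.47, whereas ECHS1 had -0.77 and HADH -0.63. CPT1A, the gate of mitochondrial fatty acid entry, was named after its values were seen: it rose from 9.73 ± 1.04 to 15.7 ± 1.74 CPM (SD, n = 3 libraries each), with a log2 fold change of 0.69 and an edgeR adjusted p = 5.84e-05.

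Among 18 tested transcriptional regulators 6 rose and 6 fell (66.7% called, beside 53.3% of all tested genes, median 0.085). PPARG, the nuclear receptor that drives fat storage genes, had 504, 572 and 459 counts in sh-Control and 1126, 865 and 886 in sh-CBX7, or 30.0 ± 1.67 and 54.0 ± 5.11 CPM (SD, n = 3 libraries each). The groups did not overlap, and the log2 fold change was 0.85 with an SE of 0.08 (adjusted p = 9.04e-09, edgeR). SREBF1, the regulator of fatty acid synthesis, had 85.6, 75.2 and 83.7 CPM against 47.9, 42.5 and 48.6 CPM, a log2 fold change of -0.81 with an SE of 0.07 (adjusted p = 3.04e-09, edgeR). TFEB, the regulator of lysosomal genes, had a log2 fold change of 0.79 and the transcript of VHL, whose product is not functional in this line, 0.50. EPAS1, named after its values were seen, went from 137.6 ± 6.46 to 147.5 ± 2.92 CPM (SD, n = 3 libraries each). Its groups did not overlap, but it was not called (log2 fold change 0.10, edgeR adjusted p = 0.157). HIF1A and ARNT of the same list were also named after their values were seen. HIF1A was called lower (log2 fold change -0.25, edgeR adjusted p = 0.000519) and ARNT higher (0.21, edgeR adjusted p = 0.0464).

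**Figure D4:**
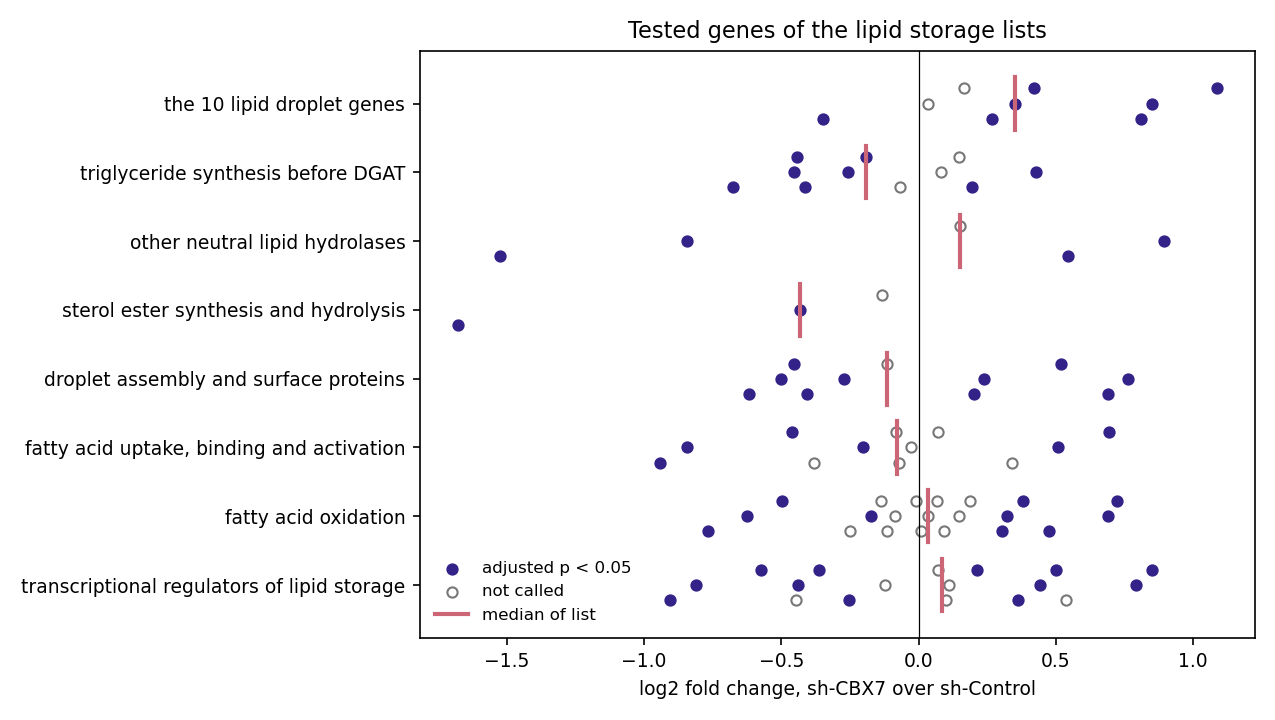
Log2 fold change, sh-CBX7 over sh-Control (x axis), of each tested gene of the lipid droplet genes and of 7 further lists (rows, spread vertically within a row for legibility only); filled points have an edgeR adjusted p below 0.05 and the red line is the list's median. The lipid droplet genes have a median of 0.35, triglyceride synthesis before DGAT -0.19 and sterol ester genes -0.43; the list of other coat and fusion proteins has no tested gene and is not drawn.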

How the data were processed

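Poly-T selected RNA of 6 libraries of 786-O cells was read with a directional kit, per the labels' protocols. The deposited values are whole-number read counts per gene; the submitters' processing notes list HISAT2 2.0.5, featureCounts 1.5.0-p3, Trimmomatic and FastQC, and the strand setting is not given in the sources used here. The notes name hg19, but 58724 of 58735 rows (99.98%) matched GENCODE 29 (GRCh38) in gene start and end, the 10 members included, so positions are on GRCh38. Columns headed siCBX7 were matched to sh-CBX7 libraries by target and replicate number. The deposited gene length column, in bases, is of another unit than the counts.

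Counts were filtered with filterByExpr, scaled with TMM and tested over all genes with edgeR 4.0.16 (R 4.3.3; glmQLFit, glmQLFTest), unpaired; adjusted p-values below 0.05 were called, and SE is the log2 fold change over the root of F. CPM used TMM-scaled library sizes. Libraries of a group differed by more than sampling noise (chi-square per gene 2.85 to 9.23), so none was taken for a repeat deposit of another; this does not show that they came from separate cultures. Alternatives were other scalings and filters, DESeq2 1.42.0, limma 3.58.1 voom, the replicate block and leaving out each library. The members and lists were chosen with earlier results of these data known. Named by rule are all members, CBX7 and up to 4 tested genes of each list by smallest p. Of the tested list genes, FABP6, CPT1A, EPAS1, HIF1A and ARNT were named outside this rule.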

Additional observations from a re-analysis of the deposited data

How the results depend on the processing

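The members' count was 6 or 7 higher and 1 lower under each alternative: DGAT1 was the seventh with library size alone, upper quartile scaling and the replicate block, and without sh-Control replicate 1. Without 1 library in turn, the all-gene counts ran from 3398 to 3953 higher and 3584 to 4082 lower; with the replicate block they were 3972 and 4126, with DESeq2 3323 and 3437, and with upper quartile scaling 4312 and 3521, where higher calls outnumbered lower ones, unlike the 3799 and 3967 of the TMM fit. Same-numbered libraries shared deviations at 0.055, 0.061 and 0.035 and differently numbered ones at -0.047 to -0.009, so each correlated best with its own number, but under the 0.1 taken to show pairing. Ratio differences could not change sign when a library was left out, because the groups overlapped in no pair. G0S2 over PNPLA2 then ran from 1.41 to 1.49 on the log2 scale. Pairing by replicate number leaves a mean ratio difference unchanged by construction, so it was no test of the ratios. Of 37 tested genes named by rule, 33 kept direction and call, while DGAT1, PNPLA3, SOAT1 and DGAT2 did not. DGAT2, not called under any alternative, ran from -0.032 (without sh-Control replicate 2) to 0.097 (without sh-Control replicate 1) when a library was left out. Triglyceride synthesis genes called higher numbered 1 to 3 when a library was left out, 1 without sh-CBX7 replicates 1 or 3 or sh-Control replicates 2 or 3; hydrolases called lower numbered 1 to 2, 1 without sh-Control replicate 1. Sterol ester genes called lower numbered 1 with a minimum of 1 CPM in 3 libraries, where SOAT2 is not tested by construction. The FABP5 sum and the transcript length were added after seeing the data. Depth limits CIDEC and the low genes: the SE was 0.44 for SOAT2 and 0.05 for PLIN2.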
